A study of Mus musculus with 12 samples.

Results

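The genes described here are 31 genes of cholesterol and fatty acid synthesis in mouse embryonic stem cells, measured by RNA-seq in 12 libraries. They were chosen by name, and each symbol in the authors' comparison table was matched to 1 Ensembl gene. All 31 were found among the 52661 genes counted, and all 31 were among the 21053 genes with enough counts to be tested. By role they comprise 8 genes of the mevalonate and isoprenoid arm, 11 of the arm from squalene to cholesterol, 6 of sterol sensing and transport, and 6 of fatty acid synthesis.

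The cells were of the established mouse embryonic stem cell line CGR8, kept pluripotent in serum medium with the cytokine LIF. Every group, control included, was a stable transfection with the ppy-cagg-ires-puro vector, which carries puromycin resistance. The control had the empty vector, and the other 3 groups carried a netrin-1 transgene: the wild-type form (netrin-1 WT) or the point mutants unc5B MUT and neo1 MUT, named for the netrin-1 receptors Unc5b and neogenin. Each group had 3 libraries, numbered 1 to 3 in all groups. What a number stands for, and whether a group was 1 clone or a pool of cells, is not stated in the labels. The spread behind every p-value is that between these libraries and may be technical.

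Cholesterol is built from acetyl-CoA. The first enzymes make mevalonate and from it the isoprenoid units, farnesyl diphosphate among them. Squalene synthase joins farnesyl units into squalene, squalene epoxidase oxidises it, and a further series of enzymes closes and trims the rings to give cholesterol. When membrane sterol is low, SCAP escorts the SREBP transcription factors to the Golgi, where they are cleaved and released to switch on these genes; INSIG proteins hold SCAP back when sterol is plentiful. SREBP2 acts mainly on the cholesterol genes and SREBP1 mainly on fatty acid synthesis. Their promoters typically combine a sterol response element with sites for NF-Y and Sp1.

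Of the 31 genes, 25 had an entry among the RefSeq promoters (build GRCm38.p6), with 33 annotated starts between them. Fdps, Fdft1, Sqle, Stard4, Scd1 and Scd2 had none. The 250 bases before each start were searched on both strands for the letters TCACNCCAC (a sterol response element), ATTGG (the NF-Y, or CCAAT, box) and GGGCGG (the GC box that Sp1 binds). The sterol response letters were in 1 of the 33 windows, that of Hmgcs1, against 1.05% of the 32851 windows of the same length in the table. Only this spelling was searched, so a variant of the element would be missed. The NF-Y letters were in 21 of the 33 windows, belonging to 20 genes, against 33.8% of all windows. The GC box was in 23 of the 33 windows, also of 20 genes, against 32.7%. A match of letters is a description of these windows and does not show binding.

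Windows of 3 genes are shown 5′ to 3′, with capitals for the sterol response letters and for ATTGG or its reverse complement. Hmgcs1, HMG-CoA synthase at the head of the mevalonate arm, is shown because it holds both motifs (chr13:119690101-119690350, plus strand). Fasn and Srebf2 are among the genes called in a group comparison below (chr11:120824548-120824797, minus strand, and chr15:82147019-82147180, plus strand). Cyp51 and Tm7sf2 were also called and had promoter entries, but their windows are not shown. These 3 were picked after their values were seen, and the windows stop before the first annotated exon.
Hmgcs1: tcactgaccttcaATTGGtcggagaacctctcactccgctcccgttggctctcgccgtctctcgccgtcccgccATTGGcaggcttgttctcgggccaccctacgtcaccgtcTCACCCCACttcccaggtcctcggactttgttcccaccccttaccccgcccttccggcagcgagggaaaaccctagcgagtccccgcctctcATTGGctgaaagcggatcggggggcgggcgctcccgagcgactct
Fasn: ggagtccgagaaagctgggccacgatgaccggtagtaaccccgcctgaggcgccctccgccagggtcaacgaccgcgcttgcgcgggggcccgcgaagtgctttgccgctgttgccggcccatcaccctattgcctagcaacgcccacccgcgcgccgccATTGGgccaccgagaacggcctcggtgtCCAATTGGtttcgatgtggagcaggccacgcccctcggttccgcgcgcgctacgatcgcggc
Srebf2: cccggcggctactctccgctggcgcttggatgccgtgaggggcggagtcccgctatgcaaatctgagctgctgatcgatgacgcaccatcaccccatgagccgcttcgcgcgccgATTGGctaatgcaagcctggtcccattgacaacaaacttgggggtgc
The Hmgcs1 window held TCACCCCAC between its NF-Y boxes. In Fasn, fatty acid synthase, a CCAAT and an ATTGG overlapped in the run CCAATTGG. Srebf2, which encodes SREBP2, had 1 NF-Y box in the stretch shown.

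Library totals ran from 22256195 to 59735737 estimated counts, and the 4 libraries numbered 3 were the smallest, at 22256195 to 24736421. Processed pseudogenes took 3.16% to 3.47% of the counts in the libraries numbered 3 and 1.48% to 1.81% in the others. Ntn1, the netrin-1 gene, had 0.623 to 16.8 CPM (the count scaled to a common library size, here by the library total) in control, and 27.0 to 335 in the 9 transgene libraries, with the libraries numbered 3 lowest in every group. Pluripotency markers, 8 of 8 detected, summed to 2554 to 3680 CPM over the 12 libraries. Together the 31 genes took 0.463% to 0.640% of a library's counts, and the highest share was in control library 3.

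Levels are given as CPM after TMM scaling, which adjusts for library composition. To compare one gene with another, CPM was divided by the gene's exon length in kilobases. On that scale the stearoyl-CoA desaturase Scd2 (112 CPM per kb, mean of 12 libraries) and Acly (107), which makes the acetyl-CoA that feeds both pathways, led the list. Acat2, the cytosolic thiolase at the first step, followed at 65.4 CPM per kb, with Srebf2 at 63.5 and farnesyl diphosphate synthase Fdps at 60.1. The lowest were Acaca, acetyl-CoA carboxylase, at 6.59 CPM per kb, Ggps1, which makes geranylgeranyl diphosphate, at 6.36, and the 3-ketosteroid reductase Hsd17b7 at 5.01. Neighbours in this order were not apart: the libraries' values of Scd2 overlapped those of Acly, and those of Srebf2 overlapped those of Fdps.

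**Figure D1:**
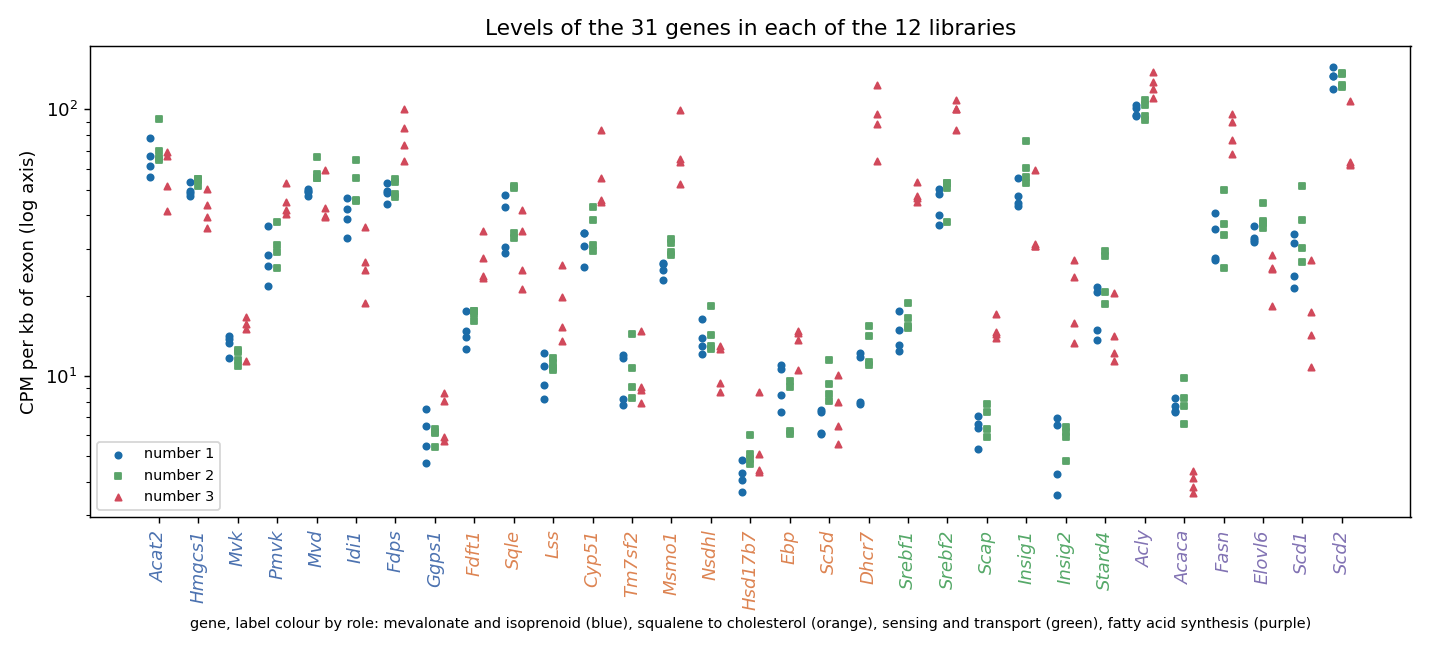
Level of each of the 31 genes in each of the 12 libraries, in CPM per kb of exon on a log axis; point shape and colour give the replicate number. The libraries numbered 3 (triangles) stand apart in many genes, most of all Dhcr7, where they lie above all others.

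Group differences were tested in 2 fits of edgeR's quasi-likelihood test over all 21053 genes; p-values were adjusted by Benjamini-Hochberg and called under 0.05. The first fit held the group alone. The second, called paired here, added the replicate number, since libraries with the same number deviated together in every group. The fit with the group alone called 0 of the 31 genes in any of the 6 comparisons. It called 0.0997% of all genes for netrin-1 WT against control, 0% for unc5B MUT against control, 0.128% for neo1 MUT against control, 0% for unc5B MUT against netrin-1 WT, 0.076% for neo1 MUT against netrin-1 WT and 0.133% for neo1 MUT against unc5B MUT. At an unadjusted p under 0.05 it held 1, 0, 2, 1, 1 and 2 of the 31 genes in that order, and DESeq2 with the group alone called 0, 0, 2, 0, 0 and 1. The percentages above belong to edgeR at an adjusted p and are not a background for these counts. Counts over all genes for DESeq2 with the group alone are in the closing section, and those at an unadjusted p are not given. The median standard error of a log2 fold change over the 31 genes was 0.36 in that fit and 0.15 in the paired fit for each comparison. In the group comparisons of the 31 genes over all 12 libraries, "rose" and "fell" refer to the paired fit, with the adjusted p of the other fit beside it; elsewhere they refer to the fit named there. The paired counts over all genes moved with single libraries: for netrin-1 WT against control, 737 genes were called, 211 without control library 1 and 1861 without netrin-1 WT library 3. For neo1 MUT against control 1108 were called, 278 without control library 1 and 1111 without control library 3.

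In cells with netrin-1 WT, 2 of the 31 genes fell against control and none rose, while 3.5% of all genes tested were called, 1.76% of them as lower. The 2 were Sqle, squalene epoxidase, a rate-limiting enzyme of the sterol branch, and Fasn. Sqle (chr15:59315077-59331192, plus strand, GRCm38) had 266, 285 and 232 CPM in control libraries 1, 2 and 3 and 169, 191 and 139 CPM with netrin-1 WT. The highest netrin-1 WT library was below the lowest control library. Its log2 fold change was -0.66 ± 0.10 (SE), and its level fell by 36.6% (edgeR adjusted p = 0.00483 paired and 0.594 with the group alone). Dropping each of the 6 libraries in turn left Sqle called in the paired fit, with log2 fold changes of -0.72 to -0.59 and adjusted p-values up to 0.0369.

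Fasn (chr11:120805846-120824547, minus strand) had 448, 546 and 978 CPM in control and 304, 278 and 842 CPM with netrin-1 WT. The groups overlapped, because both libraries numbered 3 were high, but within each number the netrin-1 WT library was lower. Its log2 fold change was -0.58 ± 0.13 (edgeR adjusted p = 0.0409 paired and 1 with the group alone). The call was lost when library 1 or 2 of either group was left out (adjusted p = 0.131 to 0.190), with log2 fold changes of -0.71 to -0.44 over the 6 fits with a library left out. Among the genes not called, the lanosterol demethylase Cyp51 had a log2 fold change of -0.46 ± 0.14 and the sterol isomerase Ebp one of -0.46 ± 0.17. The median over the 31 genes was -0.15, and 7 of them had a positive value. That median depended on the libraries numbered 3: it was 0.05 without control library 3 and -0.01 without netrin-1 WT library 3, -0.27 to -0.22 without any one of the others, and 0.12, with 18 positive, from numbers 1 and 2 alone.

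With neo1 MUT, 1 gene rose and 4 fell against control, beside 5.26% of all genes called, 1.97% as higher and 3.3% as lower. The genes that fell were Sqle, Cyp51, Srebf2 and Fasn, and the one that rose was Tm7sf2, a sterol C14 reductase. Sqle had 160, 183 and 118 CPM with neo1 MUT, again below every control library. Its log2 fold change was -0.78 ± 0.10, and its level fell by 41.8% (edgeR adjusted p = 0.00185 paired and 0.345 with the group alone). It too kept its call as each of the 6 libraries was dropped in turn, with log2 fold changes of -0.84 to -0.72 and adjusted p-values up to 0.0141.

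Tm7sf2 (chr19:6062821-6068373, minus strand) had 36.0, 36.3 and 39.9 CPM in control and 52.8, 63.2 and 64.7 CPM with neo1 MUT. All 3 neo1 MUT libraries lay above all 3 control libraries. Its log2 fold change was 0.69 ± 0.16, a gain of 60.8% (edgeR adjusted p = 0.0328 paired and 0.253 with the group alone). In the netrin-1 WT libraries it had 51.4, 47.0 and 34.8 CPM, so libraries 1 and 2 were above control and library 3 was not.

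Cyp51 (chr5:4081145-4104746, minus strand) had 151, 170 and 369 CPM in control and 113, 130 and 199 CPM with neo1 MUT. The neo1 MUT library was the lower one within each number, although the groups overlapped. Its log2 fold change was -0.58 ± 0.14 (edgeR adjusted p = 0.0437 paired and 0.902 with the group alone). Srebf2 (chr15:82147181-82205379, plus strand) had 360, 379 and 779 CPM in control and 265, 271 and 599 CPM with neo1 MUT. It too was lower within each number with overlapping groups, at a log2 fold change of -0.43 ± 0.10 (edgeR adjusted p = 0.0330 paired and 1 with the group alone). Fasn had 297, 369 and 746 CPM with neo1 MUT, lower than control within each number, at -0.52 ± 0.13 (edgeR adjusted p = 0.0483 paired and 1 with the group alone).

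The log2 fold changes with 1 library left out ran from -0.68 to -0.37 for Cyp51, -0.64 to -0.40 for Fasn, -0.46 to -0.38 for Srebf2 and 0.60 to 0.78 for Tm7sf2. The Cyp51 call was lost whichever of the 6 libraries was left out (adjusted p = 0.0696 to 0.152). Fasn, Srebf2 and Tm7sf2 were each called only when control library 3 was the one left out (adjusted p = 0.0247, 0.0486 and 0.0414), and otherwise had adjusted p-values of 0.0790 to 0.211, 0.0911 to 0.149 and 0.0596 to 0.141. Srebf1, which encodes SREBP1, was higher than control within each number but not called, at 0.31 ± 0.10 (edgeR adjusted p = 0.103 paired). The median over the 31 genes was -0.03, and 15 had a positive value. It was 0.16 without control library 3, 0.04 without neo1 MUT library 3, and 0.15, with 22 positive, from numbers 1 and 2 alone.

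With unc5B MUT, 0 of the 31 genes were called against control, and neither fit, with edgeR or DESeq2, called one; 0.0285% of all genes were called in the paired edgeR fit. At an unadjusted p under 0.05 that fit held 1 of the 31. Sqle had 240, 282 and 193 CPM, at a log2 fold change of -0.14 ± 0.10. The largest differences were those of Hsd17b7 and Scd1. Hsd17b7 had 22, 23.8 and 44.4 CPM in control and 18.6, 24.8 and 22.7 CPM with unc5B MUT, so only library 3 differed by much (-0.42 ± 0.21). Scd1, the other main desaturase, had 115, 131 and 133 CPM in control and 105, 148 and 69.5 CPM with unc5B MUT, again set apart by library 3 (-0.38 ± 0.29). Scd1 and Scd2 are close relatives and neighbours on chromosome 19, and the sources used here do not say how the counting divided their shared reads.

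**Figure D2:**
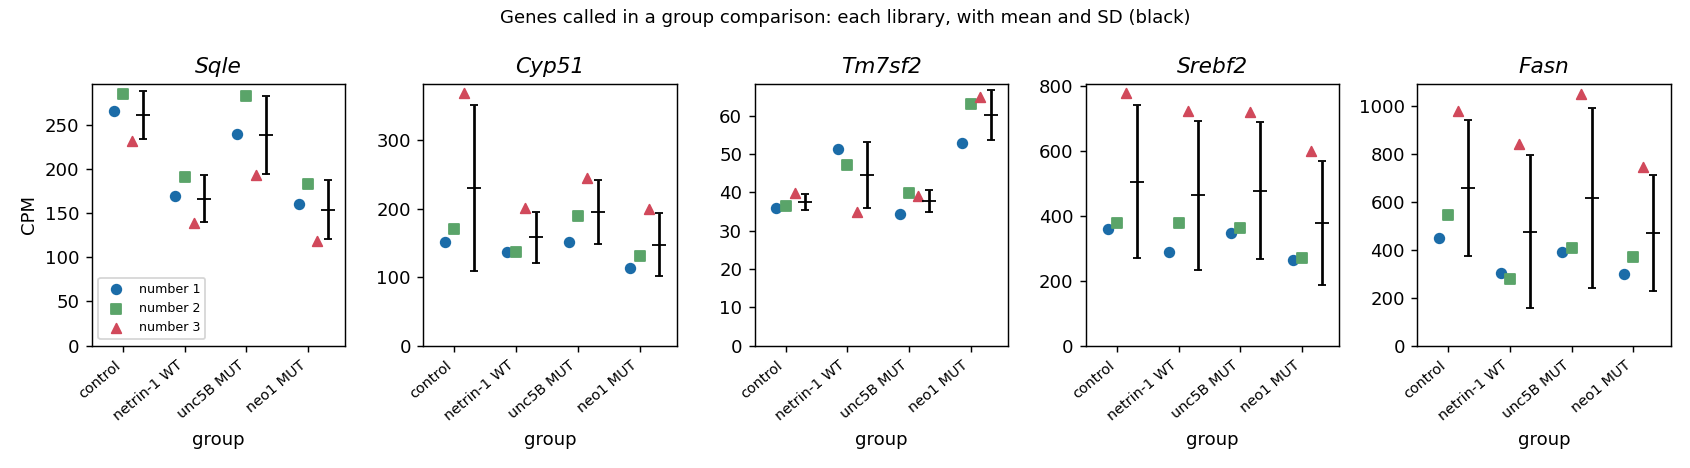
CPM of the 5 genes called in a group comparison, in each library of the 4 groups, with the group mean and SD (n = 3) in black. Sqle is low with netrin-1 WT and neo1 MUT at every number, whereas Cyp51, Srebf2 and Fasn are spread mainly by the high libraries numbered 3.

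The netrin-1 forms were also compared directly. Against netrin-1 WT, unc5B MUT had 1 of the 31 genes higher and none lower, beside 1.97% of all genes called. The gene was Sqle, at a log2 fold change of 0.51 ± 0.10 (edgeR adjusted p = 0.0265 paired and 0.964 with the group alone). It was higher within each number, and the groups did not overlap. With 1 library left out, the call held only when netrin-1 WT library 3 was left out (adjusted p = 0.0191, otherwise 0.0881 to 0.164), while the log2 fold change stayed within 0.49 to 0.54. Ebp showed a difference of similar size that was not called, 0.53 ± 0.17 (edgeR adjusted p = 0.146 paired). Its values were 16.9, 14 and 24.4 CPM with netrin-1 WT and 24.4, 20.9 and 33.6 CPM with unc5B MUT, higher within each number.

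Between neo1 MUT and netrin-1 WT, 0 of the 31 genes were called in the paired edgeR fit, beside 1.99% of all genes. In that fit 6 had an unadjusted p under 0.05. DESeq2 with the replicate number called 1, and its share of all genes is not given here. The largest differences were those of Acat2 and Tm7sf2, both higher with neo1 MUT within each number. Acat2 had 170, 178 and 106 CPM with netrin-1 WT and 198, 235 and 177 CPM with neo1 MUT (0.44 ± 0.14, edgeR adjusted p = 0.179 paired). Tm7sf2 differed by 0.44 ± 0.16 (edgeR adjusted p = 0.219 paired). Sqle was close in the 2 groups, at -0.12 ± 0.10.

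The comparison of neo1 MUT with unc5B MUT had 2 of the 31 genes called, beside 4.87% of all genes. Sqle fell by 35.7%, with a log2 fold change of -0.64 ± 0.10 (edgeR adjusted p = 0.00659 paired and 0.546 with the group alone). Tm7sf2, at 34.3, 39.8 and 39.0 CPM with unc5B MUT, rose by 59.6% with neo1 MUT, a log2 fold change of 0.67 ± 0.16 (edgeR adjusted p = 0.0364 paired and 0.32 with the group alone). Neither gene's groups overlapped. The Sqle call was lost without unc5B MUT library 1 or 2 (adjusted p = 0.0574 and 0.0552), and the Tm7sf2 call whichever of the 6 libraries was left out (adjusted p = 0.0658 to 0.204). Their log2 fold changes in those fits ran from -0.67 to -0.58 and from 0.59 to 0.77. The authors' deposited table holds 20347 genes. In 5 of the comparisons, the genes of the 31 under its threshold were those of the paired fit, counting comparisons where both had none. The authors' deposited table has 2 of the 31 for netrin-1 WT against control (4.42% of its genes called). The authors' deposited table has 0 for unc5B MUT against control (0.0491%) and 5 for neo1 MUT against control (5.52%). Between forms, the authors' deposited table has 1 for unc5B MUT against netrin-1 WT (3.07%), 0 for neo1 MUT against netrin-1 WT (2.19%) and 3 for neo1 MUT against unc5B MUT (6.36%), the added one being Srebf2 (adjusted p = 0.0478).

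**Figure D3:**
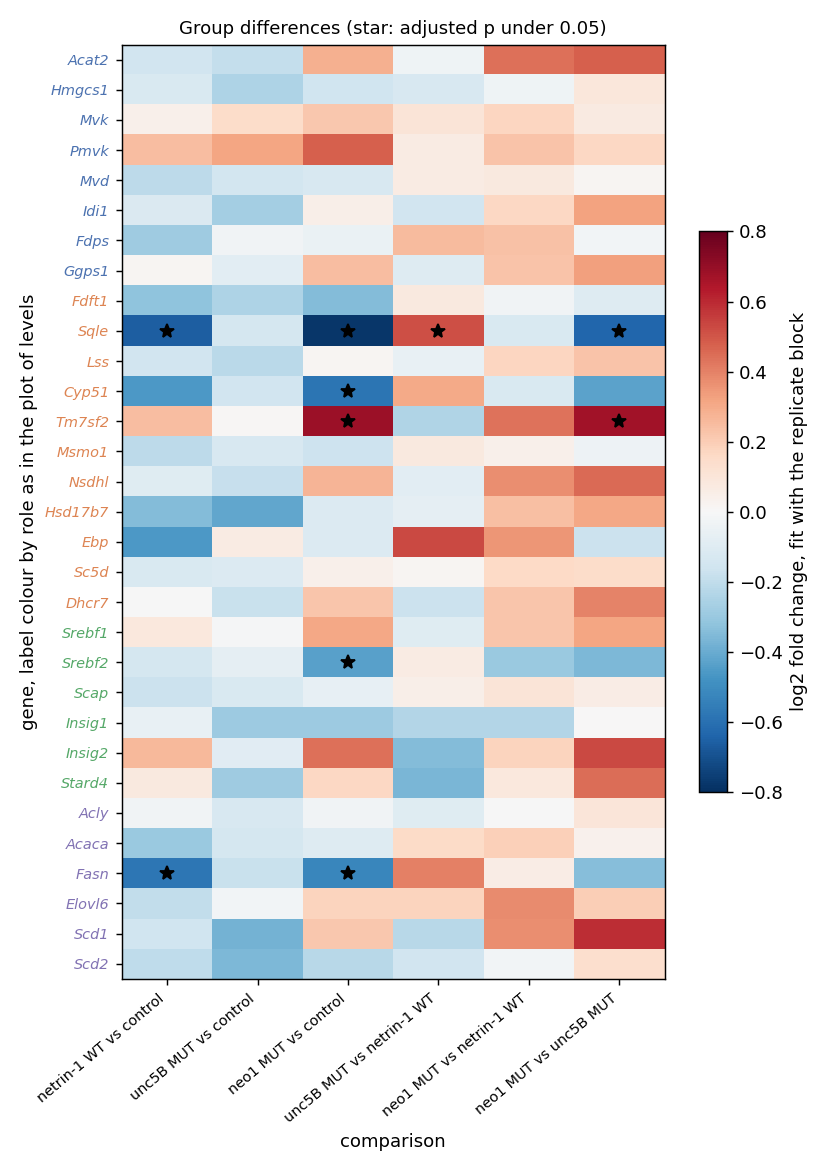
Log2 fold change of each gene in each of the 6 comparisons, from the paired fit; a star marks an adjusted p under 0.05. Sqle carries 4 of the 10 stars, and the column of unc5B MUT against control has none.

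At least 1 comparison of the paired fit called 5 of the 31 genes, beside 9.27% of all genes. Of the 8 genes of the mevalonate and isoprenoid arm (Acat2, Hmgcs1, Mvk, Pmvk, Mvd, Idi1, Fdps and Ggps1), 0 were called in any comparison of the paired fit. Of the 11 genes from squalene to cholesterol, 3 were called in at least 1 comparison (Sqle, Cyp51 and Tm7sf2); Fdft1, Lss, Msmo1, Nsdhl, Hsd17b7, Ebp, Sc5d and Dhcr7 were not. Of sensing and transport, Srebf2 alone of 6 was called, and Srebf1, Scap, Insig1, Insig2 and the sterol carrier Stard4 were not. Of fatty acid synthesis, Fasn alone of 6 was called, and Acly, Acaca, the elongase Elovl6, Scd1 and Scd2 were not. The group medians for neo1 MUT against control were 0.13, -0.11, 0.05 and -0.07 in these 4 roles, and for netrin-1 WT against control -0.12, -0.21, 0.01 and -0.20. From numbers 1 and 2 alone they were 0.23, 0.26, 0.23 and 0.04 for neo1 MUT and 0.05, 0.14, 0.29 and 0.02 for netrin-1 WT. With all 12 libraries the median over all genes tested was 0.02 and 0.01 in these 2 comparisons.

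Sqle and Srebf2 lie on chromosome 15, where many genes moved the same way. Among the 390 genes of chromosome 15 above 10 CPM, the median log2 fold change in the paired fit was -0.34 for netrin-1 WT, 0.03 for unc5B MUT and -0.45 for neo1 MUT, each against control. Over all 9194 genes above 10 CPM it was -0.04, 0.00 and -0.01. Of the 390 genes, 43 were called lower and 1 higher with netrin-1 WT, and 106 lower and 3 higher with neo1 MUT. Of the 9194, 192 were called lower and 195 higher with netrin-1 WT, and 367 lower and 208 higher with neo1 MUT. Sqle lay 0.32 below the chromosome 15 median with netrin-1 WT (a difference of -0.32), where 39 of the 390 genes had a lower value, and -0.33 from it with neo1 MUT, where 52 did. Srebf2 with neo1 MUT was 0.01 from that median, with 205 genes lower and 184 higher. Between forms, the chromosome 15 median was 0.36 for unc5B MUT against netrin-1 WT, beside 0.04 over all genes above 10 CPM, and Sqle lay 0.15 above it, with 276 of the 390 genes lower. For neo1 MUT against unc5B MUT that median was -0.50, beside -0.02, and Sqle differed from it by -0.14, with 113 genes lower. The medians of chromosomes 5, 11 and 19, which hold Cyp51, Fasn and Tm7sf2, were -0.07, -0.01 and -0.03 for neo1 MUT against control. The part of the chromosome-wide difference in the Sqle and Srebf2 results was not tested.

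Markers of primitive endoderm, a cell type that arises in such cultures, also differed between the groups. The 15 markers, none at 0, summed to 2142 to 4732 CPM in control, 663 to 1377 with netrin-1 WT, 1481 to 3520 with unc5B MUT and 685 to 984 with neo1 MUT. In the paired fit 15 of 15 fell with netrin-1 WT and with neo1 MUT, and 0 were called with unc5B MUT. The comparison of unc5B MUT with control called 0.0285% of all genes, so the lack of a call does not show unchanged markers. The mean sum was 2330 CPM with unc5B MUT and 3110.5 in control, with overlapping ranges. It was 916 with netrin-1 WT and 879 with neo1 MUT. Lipid transport genes of the visceral endoderm (10 genes, 1 of them at 0 with netrin-1 WT) summed to 18.9 to 25.1 CPM in control. They summed to 11.3 to 15.7 with netrin-1 WT, 10.5 to 22.9 with unc5B MUT and 8.55 to 16.3 with neo1 MUT. Fibroblast markers (9 genes, 1 or 2 of them at 0 in control, unc5B MUT and neo1 MUT) summed to 8.96 to 18.5 CPM in control. Their sums were 6.15 to 14.9 with netrin-1 WT, 10.1 to 11.4 with unc5B MUT and 4.70 to 8.39 with neo1 MUT. In bulk RNA, fewer cells of a type and less RNA per cell cannot be told apart, and the part of the endoderm difference in the results above was not tested.

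Differences were next taken within each replicate number, as the log2 CPM of the transgene library minus that of the control library with the same number. With 1 library of a group at each number, these carry no test, and the 3 comparisons share the control libraries. For netrin-1 WT the median over the 31 genes was 0.10 at number 1, 0.13 at number 2 and -0.59 at number 3. The gene was lower than control in 14, 11 and 28 of the 31, beside 46.8%, 50.1% and 49.8% of all genes. For unc5B MUT the medians were -0.05, 0.04 and -0.38, with 20, 12 and 26 of the 31 lower, beside 48.6%, 49.3% and 47.9%. For neo1 MUT they were 0.16, 0.19 and -0.38, with 9, 9 and 23 of the 31 lower, beside 48.2%, 50.2% and 48.3%. In all 3 groups the median was well below 0 at number 3 alone, and control library 3 is shared by those differences.

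Dhcr7, the last reductase of the pathway, shows this pattern. At numbers 1 and 2 it was 0.58 and 0.36 above control with netrin-1 WT and 0.64 and 0.49 above with neo1 MUT on the log2 CPM scale. At number 3 it was -0.95 and -0.36. Sqle kept its sign at every number, with differences of -0.65, -0.58 and -0.74 for netrin-1 WT and -0.73, -0.64 and -0.97 for neo1 MUT. The count of genes lower than control at all 3 numbers was 9 for netrin-1 WT, 8 for unc5B MUT and 5 for neo1 MUT, beside 16.3%, 14.6% and 18.8% of all genes. The count higher at all 3 was 1, 1 and 7, beside 17%, 15.9% and 19.9%.

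**Figure D4:**
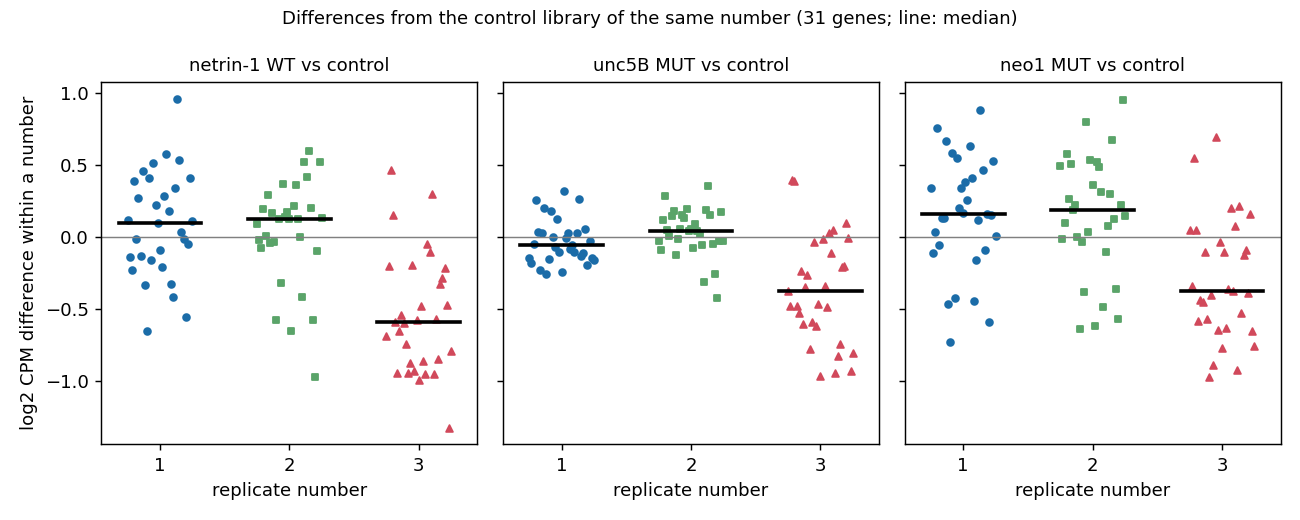
Log2 CPM difference of each of the 31 genes from the control library of the same number, for the 3 transgene groups; lines are medians. At number 3 the medians are -0.59, -0.38 and -0.38, while at numbers 1 and 2 they lie between -0.05 and 0.19.

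With the libraries numbered 3 left out of every group, the paired fit called more of the 31 genes. For netrin-1 WT against control, Tm7sf2, Dhcr7, Insig1, Insig2, Stard4 and Scd1 rose and Sqle, Scap and Fasn fell, 9 of the 31, beside 16.3% of all genes. For neo1 MUT against control, Acat2, Pmvk, Tm7sf2, Nsdhl, Dhcr7, Srebf1, Stard4 and Scd1 rose and Sqle, Cyp51, Srebf2 and Fasn fell, 12 of the 31, beside 10.5%. Against netrin-1 WT, unc5B MUT had Sqle and Fasn higher and Dhcr7, Stard4 and Scd1 lower, beside 13.4%, and neo1 MUT had 0 called, beside 2.95%, with 8 at an unadjusted p under 0.05. Against unc5B MUT, neo1 MUT had Acat2, Tm7sf2, Nsdhl, Dhcr7, Srebf1, Stard4 and Scd1 higher and Sqle and Cyp51 lower, beside 10% of all genes. For unc5B MUT against control 0 were called, beside 0.0754%, and 2 had an unadjusted p under 0.05. Sqle and Fasn were thus lower with both netrin-1 WT and neo1 MUT with and without the libraries numbered 3, whereas the rises of Dhcr7, Stard4 and Scd1 in both groups were called in the paired edgeR fit only without them.

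More genes differed by replicate number than by group. In a model with group and number, 25 of the 31 genes differed between number 3 and the mean of numbers 1 and 2, 14 higher and 11 lower, beside 62.8% of all genes (31.8% higher and 31% lower). Between numbers 2 and 1 edgeR called 0 genes of all those tested, with 2500 at an unadjusted p under 0.05. Dhcr7 had the largest difference, 8.26-fold (log2 3.05 ± 0.17). It had 45.6, 63.9 and 717 CPM in control, 68.2, 82.1 and 371 with netrin-1 WT, 46.4, 65.8 and 512 with unc5B MUT, and 70.8, 89.8 and 559 with neo1 MUT. Every library numbered 3 was thus several times above all others.

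Insig2, an ER anchor of SCAP, had 12.3, 16.7 and 81.4 CPM in control, 24.1, 22.3 and 54.8 with netrin-1 WT, 14.8, 21.3 and 46.0 with unc5B MUT, and 22.8, 20.6 and 94.6 with neo1 MUT. Its difference for number 3 was 1.83 ± 0.19 on the log2 scale, with the libraries numbered 3 above all others. Srebf1 had 73.8, 85.2 and 261 CPM in control, 83.7, 93.1 and 252 with netrin-1 WT, 69.7, 86.6 and 267 with unc5B MUT, and 98.2, 106 and 301 with neo1 MUT. It differed by 1.65 ± 0.07, and the number 3 libraries of the 4 groups lay close together. Msmo1, the sterol C4 methyl oxidase, had 140, 175 and 612 CPM in control, 163, 193 and 321 with netrin-1 WT, 153, 201 and 399 with unc5B MUT, and 161, 180 and 392 with neo1 MUT. It differed by 1.32 ± 0.14, and control library 3 was the highest.

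The difference ran in opposite directions within both pathways. Of the sensing genes, Scap (1.20 ± 0.10) and Srebf2 (1.10 ± 0.07) rose at number 3 with Srebf1 and Insig2, while Insig1 (-0.54 ± 0.18) and Stard4 (-0.49 ± 0.18) fell. In fatty acid synthesis Fasn (1.27 ± 0.10) and Acly (0.32 ± 0.08) rose, whereas Acaca (-0.98 ± 0.09), Scd1 (-0.88 ± 0.23), Scd2 (-0.85 ± 0.13) and Elovl6 (-0.58 ± 0.08) fell. From squalene onward Fdft1 (squalene synthase), Lss, Cyp51, Msmo1, Ebp and Dhcr7 rose, and Sqle (-0.40 ± 0.07) and Nsdhl (-0.38 ± 0.11) fell. In the mevalonate arm Pmvk and Fdps rose and Acat2, Hmgcs1 and the isomerase Idi1 (-0.79 ± 0.16) fell. Mvk, Mvd, Ggps1, Tm7sf2, Hsd17b7 and Sc5d were not called. Leaving out 1 of the libraries numbered 3 in turn gave 21 to 27 of the 31 called.

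**Figure D5:**
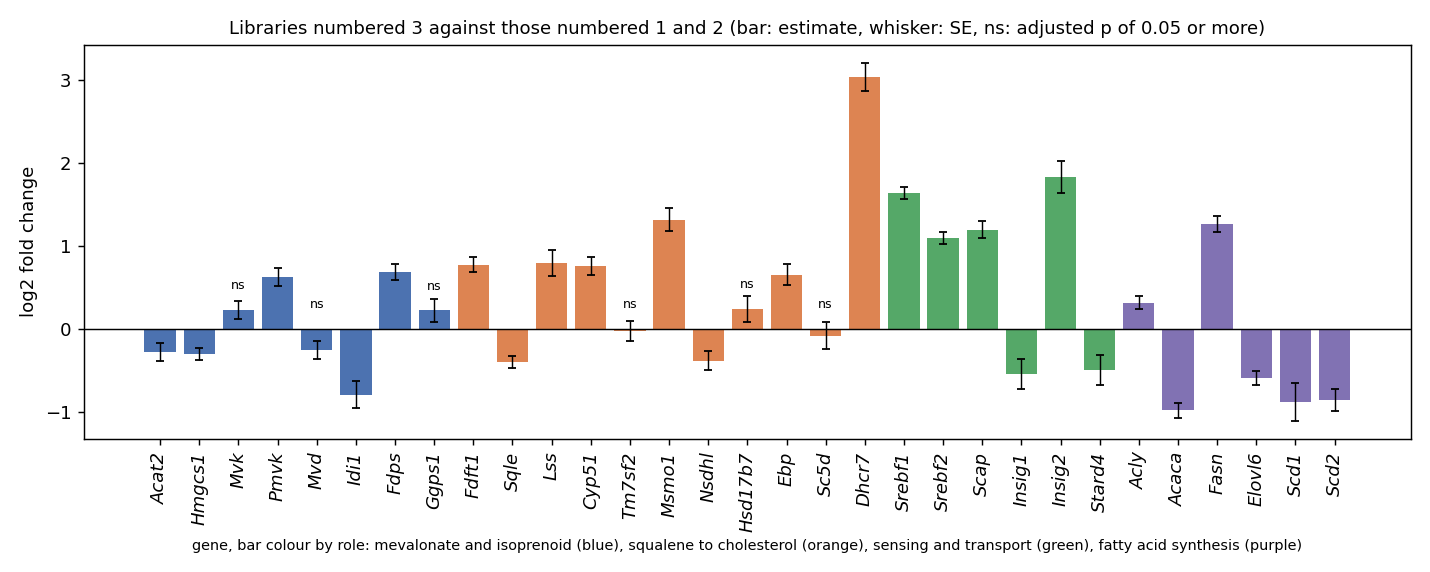
Log2 fold change of the libraries numbered 3 against those numbered 1 and 2, with its SE, for each of the 31 genes; bar colour gives the role and ns marks genes not called. Dhcr7 at 3.05 stands highest and Acaca at -0.98 lowest, and genes of the same role point both ways.

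A wider list of 76 genes of sterol uptake, export and storage, SREBP processing, other isoprenoid and lipid synthesis and fatty acid oxidation, all tested, was read in the same paired fit. With netrin-1 WT against control 2 rose and 4 fell, beside 3.5% of all genes called. With unc5B MUT 0 were called, beside 0.0285%, with 11 at an unadjusted p under 0.05. With neo1 MUT 2 rose and 3 fell, beside 5.26%. The long-chain acyl-CoA synthetase Acsl1 rose with netrin-1 WT from 36.9 ± 9.6 to 64.7 ± 13.1 CPM (mean ± SD, n = 3; log2 0.82 ± 0.16), and the cholesteryl ester hydrolase Nceh1 from 20.1 ± 2.2 to 38.4 ± 6.5 CPM (0.92 ± 0.17). Etfdh, of the electron transfer chain of fatty acid oxidation, fell by 0.53 on the log2 scale. With neo1 MUT Coq2, which builds ubiquinone, rose (1.15 ± 0.21), as did the desaturase Fads2 (0.73 ± 0.15), and the acyltransferase Soat2, which lies on chromosome 15, fell (-0.61 ± 0.16), as did the dehydrogenase Acadvl (-0.66 ± 0.13). The elongase Elovl1 fell in both groups, by 0.59 with netrin-1 WT and by 0.62 with neo1 MUT on the log2 scale. Between the netrin-1 forms, 1 of the 76 rose and 2 fell with unc5B MUT against netrin-1 WT (1.97% of all genes called), and 1 rose with neo1 MUT against netrin-1 WT (1.99%). With neo1 MUT against unc5B MUT 3 rose and 3 fell (4.87%), among them Fads2 (0.76 ± 0.15) and the chromosome 15 gene Dgat1 (-0.80 ± 0.20), which makes triglyceride. None of these was called with the group alone, where the adjusted p-values of the 76 genes gave 0 calls in each comparison, with 10, 2 and 6 at an unadjusted p under 0.05 in edgeR against control.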

How the data were processed

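Total RNA of 12 libraries was sequenced with standard Illumina preparation, per the labels. The authors deposited estimated counts per gene for 52661 Ensembl IDs (53.8% to 58.3% of a library's values were not whole). STAR 2.5.2b, Bowtie2, Bowtie, DESeq2, FastQC 0.11.5 and R 3.3.2, and the builds mm10, GRCm38.p5 and GRCh38, are named in the submitters' processing notes without roles; the counting program and its use of strand are not given in the sources used here. The authors' deposited comparison table gives, per the file headers, log2 fold changes, fold values (a signed score), p-values and adjusted p-values for 20347 genes. The deposited normalized log2 table was not used.

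Groups and numbers come from the titles. Counts were rounded and fitted in edgeR 4.0.16 (R 4.3.3, limma 3.58.1) with TMM, filterByExpr (21053 genes kept) and the quasi-likelihood test. The design had assumed whole counts. SE is the log2 fold change over the square root of F; log2 CPM used a prior count of 2. Coordinates and exon lengths are from GENCODE M21 (GRCm38), which held 52566 of the IDs. An exact permutation test of 3 against 3 cannot go below 0.1, so none is given.

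Numbers were read as pairs from the titles and the data: libraries with the same number correlated at 0.58 to 0.88 in their deviations from group means (0.74 to 0.96 over the 31 genes), above the minimum of 0.1. Numbers 1 and 2 also correlated (0.49 to 0.76), so passing 0.1 does not tell same-number pairs from crossed ones there. Number 3 correlated with another number at -0.83 to -0.60. Deviations from a group mean cancel within the group. A shift shared by the libraries numbered 3 therefore gives such negative values by construction. It also gives positive values among numbers 1 and 2, whether of the same number or crossed.

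The genes, lists and tests were chosen with earlier results of these data known. Values in every library are given for genes called in a comparison, the 2 largest differences per comparison (mean of at least 5 CPM) and the 4 largest for number 3; of the other lists, called genes, at most 4 per list and comparison. The planned promoter rule, called genes holding the sterol response letters, chose none. Data were simulated for netrin-1 WT against control on 21053 genes. There the fit with the group alone recovered 1% of changes of 2-fold and 47% of 4-fold, with 0 false calls. The paired fit recovered 84% and 98%, with 19 false calls. The simulation gave every group the control's differences between numbers, with the spread of a fit that held the number. It therefore favoured the paired fit by construction and cannot show which fit suits the real libraries. Alternatives were RLE size factors, no low-count filter, DESeq2 1.42.0, only the 2 groups compared, each library left out, and numbers 1 and 2 only.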

Additional observations from a re-analysis of the deposited data

Results flagged for a closer look

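Of the differences between netrin-1 forms, 3 passed a test of the difference itself in the edgeR paired fit. Sqle was higher with unc5B MUT than with netrin-1 WT, by 0.51 on the log2 scale (adjusted p = 0.0265). Sqle was lower with neo1 MUT than with unc5B MUT, at -0.64 (adjusted p = 0.00659). Tm7sf2 was higher with neo1 MUT than with unc5B MUT, by 0.67 (adjusted p = 0.0364). Each held its direction in 3 of 3 numbers, and none passed in edgeR with the group alone. For the Sqle differences, the median over the genes of chromosome 15 above 10 CPM was 0.36 and -0.50 in the same comparisons, and its part in them was not tested. With 1 library of the 2 groups left out, the Sqle calls held in 1 and 4 of 6 paired fits and the Tm7sf2 call in 0 of 6, with log2 fold changes of 0.49 to 0.54, -0.67 to -0.58 and 0.59 to 0.77.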

How the results depend on the processing

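With the group alone, 0 of the 31 genes were called in each group comparison by edgeR, and this held with RLE size factors, without the low-count filter, with only the 2 groups compared and without each library in turn. Adding the replicate block gave 2 called genes for netrin-1 WT against control, 5 for neo1 MUT against control, 1 for unc5B MUT against netrin-1 WT and 2 for neo1 MUT against unc5B MUT; the same 4 counts came with the block and RLE size factors, and with the block and no low-count filter. With the block and 1 library left out they ranged from 1 to 2, 1 to 4, 0 to 2 and 0 to 1. DESeq2 with the group alone called 2 genes for neo1 MUT against control and 1 for neo1 MUT against unc5B MUT. With the block it called 3 for netrin-1 WT and 7 for neo1 MUT against control. Between forms, DESeq2 with the block called 2 for unc5B MUT against netrin-1 WT, 1 for neo1 MUT against netrin-1 WT and 6 for neo1 MUT against unc5B MUT. The share of all genes called by DESeq2 with the block is not given here, so these counts have no background beside them. Numbers 1 and 2 alone with the block gave 9, 12, 5 and 9 in the order of the block counts. Unc5B MUT against control gave 0 under every alternative run. Over all genes the block moved the calls from 21 to 737, 0 to 6, 27 to 1108, 0 to 414, 16 to 419 and 28 to 1026 for netrin-1 WT against control, unc5B MUT against control, neo1 MUT against control, unc5B MUT against netrin-1 WT, neo1 MUT against netrin-1 WT and neo1 MUT against unc5B MUT, and DESeq2 with the group alone called 347, 10, 430, 180, 226 and 384. With the block and 1 library left out, the counts over all genes were 211 to 1861, 2 to 7, 278 to 1111, 36 to 1830, 147 to 379 and 133 to 497 in that order; the 1861 and the 1830 came without netrin-1 WT library 3. Without the block and with 1 library left out, Srebf2 for neo1 MUT against control ranged from -0.92 to 0.034, the reversal (adjusted p = 0.990) coming without control library 3, which had the highest Srebf2 level of its group. The contrast of number 3 called 21 to 27 of the 31 genes under its alternatives. Depth was lowest in the libraries numbered 3, so at an equal CPM a gene had fewer counts there.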
